A study of Rattus norvegicus with 26 samples.

Results

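AMPA and kainate receptors are the ligand-gated channels that carry most fast excitatory transmission in the spinal cord, and their pore-forming subunits are encoded in the rat by 9 genes. These 9 genes were taken from the deposited count table by symbol, out of 32883 genes in all. No filter on their values was used, but the set was chosen with earlier results of these data known. The 4 AMPA receptor genes were Gria1 (ENSRNOG00000045816), Gria2 (ENSRNOG00000054204), Gria3 (ENSRNOG00000007682) and Gria4 (ENSRNOG00000006957). The 5 kainate receptor genes were Grik1 (ENSRNOG00000001575), Grik2 (ENSRNOG00000000368), Grik3 (ENSRNOG00000008992), Grik4 (ENSRNOG00000030910) and Grik5 (ENSRNOG00000020310). All 9 passed the filter on low counts, and the lowest raw count of any of them in any library was 35 reads (Grik1).

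AMPA receptors open within moments of glutamate release, and most of their subunits are made by neurons, although glia make some. Gria2 encodes the subunit that keeps calcium out of the channel once its transcript has been edited by Adarb1, Gria1 encodes the subunit best known for activity-dependent insertion at synapses, and Gria3 and Gria4 encode subunits found in many spinal neurons. Kainate receptors act on both sides of the synapse. Grik1, Grik2 and Grik3 encode low-affinity subunits that can form channels by themselves, whereas Grik4 and Grik5 encode high-affinity subunits that need one of the former as a partner.

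RNA sequencing of bulk tissue compared 26 spinal cord libraries from wild type female Sprague-Dawley rats of 250 g, labelled as postnatal day 70. Intact (n = 4) comprised intact or sham animals, which the labels do not tell apart. All other groups carried a clip compression of 60 g for 1 min at T10. Of these, sub-SCI (n = 3) was taken 7 days after injury, when the other injured rats received an intrathecal injection of mesenchymal stem cells from human umbilical cord (hUC-MSCs, +MSC) or of vehicle (+PBS). Vehicle groups were taken 1, 2 and 4 weeks after the injection (wpt) and held 3, 2 and 4 libraries (+PBS-1w, +PBS-2w, +PBS-4w), and the +MSC groups of the same weeks held 3, 3 and 4 (+MSC-1w, +MSC-2w, +MSC-4w). The study's methods add daily cyclosporin A, an immunosuppressant, for the whole experiment and do not limit it to a group. The tissue was the 5 mm of cord around the lesion, or the comparable segment of Intact rats. The study's methods call the libraries biological replicates without saying whether animals were pooled.

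The total count lay between 19496602 and 43468509 reads per library. Values are given as CPM, the count scaled to a common library total, after TMM scaling, the factors of which lay between 0.9402 and 1.055. Comparisons between genes use CPM per kilobase of the gene length in the deposited table. A gene passed where edgeR's quasi-likelihood test gave an adjusted p under 0.05, and was a DEG where the adjusted p was under 0.01 and the absolute log2 fold change above 1. Fold changes are on the log2 scale with their standard errors (SE). The 12 neuron markers summed to between 13100 and 15600 CPM in the Intact libraries. These markers are general to neurons, so their sums do not check the labelled segment.

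In Intact cords the kainate family had a pair of leading genes, whereas in the AMPA family the ranges of Gria2 and Gria3 overlapped. Per kilobase, Gria4 stood at 25.7 ± 2.98 (SD, n = 4), Gria2 at 23.8 ± 3.97, Gria3 at 18.9 ± 2.47 and Gria1 at 10.9 ± 1.19 CPM. Among the kainate genes, Grik5 stood at 24.8 ± 1.77 and Grik4 at 23.5 ± 1.71 CPM per kilobase. Grik2 followed at 6.87 ± 0.608, Grik1 at 3.98 ± 0.382 and Grik3 at 3.06 ± 0.154 CPM per kilobase. The levels of Gria4, Grik5, Gria2 and Grik4 lay within each other's SD or close to it, whereas the 3 low-affinity kainate genes stood well below both high-affinity genes.

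Promoter sequences from RefSeq (build GRCr8, 250 bases before to 50 bases after the annotated start) were found for 6 of the 9 genes, Gria4 and Grik1 to Grik5. The 3 shown are those of the gene with the largest fall after injury (Gria4), the gene with the smallest fall (Grik5) and the gene with the most GC boxes (Grik3). They lie at chr8:10319832-10320131 on the minus strand, chr1:89794860-89795159 on the minus strand and chr5:143052192-143052491 on the plus strand. Each is written 5′ to 3′ in the direction of transcription, in lower case, with GC boxes (GGGCGG on either strand) in capitals.
Gria4: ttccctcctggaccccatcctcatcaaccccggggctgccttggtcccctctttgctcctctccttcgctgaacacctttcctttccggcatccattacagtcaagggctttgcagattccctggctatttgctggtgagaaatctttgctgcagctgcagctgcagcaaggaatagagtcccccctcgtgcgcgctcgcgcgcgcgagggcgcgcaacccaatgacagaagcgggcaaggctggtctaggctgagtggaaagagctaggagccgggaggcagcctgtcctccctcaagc
Grik5: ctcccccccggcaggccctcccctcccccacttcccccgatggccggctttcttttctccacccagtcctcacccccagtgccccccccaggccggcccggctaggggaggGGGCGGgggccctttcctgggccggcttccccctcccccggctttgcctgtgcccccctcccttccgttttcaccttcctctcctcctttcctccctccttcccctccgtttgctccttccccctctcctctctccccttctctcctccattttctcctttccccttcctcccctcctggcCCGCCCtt
Grik3: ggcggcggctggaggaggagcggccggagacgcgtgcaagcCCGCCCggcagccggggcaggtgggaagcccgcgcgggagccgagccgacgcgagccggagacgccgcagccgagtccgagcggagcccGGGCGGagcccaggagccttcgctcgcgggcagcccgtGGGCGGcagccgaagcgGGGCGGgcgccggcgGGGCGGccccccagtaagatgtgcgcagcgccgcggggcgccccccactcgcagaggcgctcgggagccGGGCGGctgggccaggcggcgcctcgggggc
The GC box was found at 6 places in Grik3 and at 2 in Grik5 without overlap, and in none of Gria4, Grik1, Grik2 and Grik4. It was present in 33.1% of 33469 RefSeq promoters of the same length. The GC content was 82.3% in Grik3, 69.0% in Grik5, 60.3% in Gria4, 58.7% in Grik1, 50.3% in Grik2 and 44.0% in Grik4, beside a median of 51.7% over all promoters. The cAMP response element TGACGTCA (in 1.83% of all promoters) and TTCAGCACC, the left part of the RE1 element of neuronal genes (0.356%), were searched on both strands and were in none of the 6 windows. No relation between these letters and the falls described next was tested.

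To ask how the subacute lesion altered these transcripts, sub-SCI was compared with Intact. All 9 genes fell relative to the whole RNA of the segment, the 4 AMPA genes to between 0.1351 and 0.2283 of their Intact level in the fit and the 5 kainate genes to between 0.2391 and 0.5282. All 9 passed (30.9% of the 17990 genes tested passed as lower), 8 were lower DEGs (17.5% of all genes), and Grik5 was the exception with a fold change short of the DEG threshold. The median log2 fold change was -2.06 over the 9 genes and -0.02 over all genes tested. In bulk tissue, fewer cells of a type and less RNA per cell cannot be told apart.

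Gria4 had the largest fall. It measured 160, 137, 143 and 121 CPM in the 4 Intact libraries and 19.6, 27.9 and 9.36 CPM in the 3 sub-SCI libraries, so that the highest injured library lay far below the lowest Intact one. It fell by 2.89 on the log2 scale (SE 0.39, adjusted p = 1.71e-06 in edgeR's quasi-likelihood test). Gria2, whose product sets calcium permeability, measured 201, 138, 161 and 153 CPM in Intact and 37.2, 42.2 and 17.4 CPM in sub-SCI. These ranges lay apart, and the gene stood at -2.34 on the log2 scale (SE 0.30, adjusted p = 7.95e-07, edgeR). Gria1 measured 34.3, 29.9, 36.5 and 29.0 CPM in Intact and 8.69, 7.29 and 4.51 CPM in sub-SCI. It fell by 2.24 on the log2 scale (SE 0.27, adjusted p = 3.07e-07, edgeR). Gria3 measured 114, 86.3, 100 and 88.0 CPM in Intact and 24.0, 31.4 and 11.1 CPM in sub-SCI, which put it at -2.13 on the log2 scale (SE 0.35, adjusted p = 1.69e-05, edgeR).

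The kainate genes had a wider range of fold changes. The low-affinity subunit genes Grik1 and Grik3 had fold changes close to that of Gria3. Grik1 measured 13.9, 12, 11.1 and 12.2 CPM in Intact and 4.01, 3.70 and 1.39 CPM in sub-SCI (log2 fold change -2.01, SE 0.42, adjusted p = 0.000278, edgeR). Grik3 measured 11.8, 10.6, 11.3 and 10.8 CPM in Intact and 2.82, 3.08 and 2.07 CPM in sub-SCI (log2 fold change -2.06, SE 0.32, adjusted p = 1.04e-05, edgeR). The other 3 kainate genes had smaller fold changes. Grik2 measured 36.2, 29.5, 35.3 and 34.7 CPM in Intact and 17.6, 14.6 and 12 CPM in sub-SCI (log2 fold change -1.20, SE 0.17, adjusted p = 4.24e-06, edgeR). Grik4 measured 74.2, 84.2, 80.0 and 71.8 CPM in Intact and 44.3, 34.8 and 20.0 CPM in sub-SCI (log2 fold change -1.23, SE 0.27, adjusted p = 0.000524, edgeR). Grik5 had the smallest fall, from 96.4, 101, 87.9 and 87.2 CPM in Intact to 61.0, 51.0 and 35.5 CPM in sub-SCI (log2 fold change -0.92, SE 0.19, adjusted p = 0.000205, edgeR). For all 9 genes every sub-SCI library lay below every Intact library, which held for 34% of all genes tested. The lowest sub-SCI library was replicate 3 for all 9 genes, and it also had the lowest sum of the 12 neuron markers (753 CPM, against 2310 and 3120 CPM in the other 2). Without it, 9 of 9 genes still passed.

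**Figure D1:**
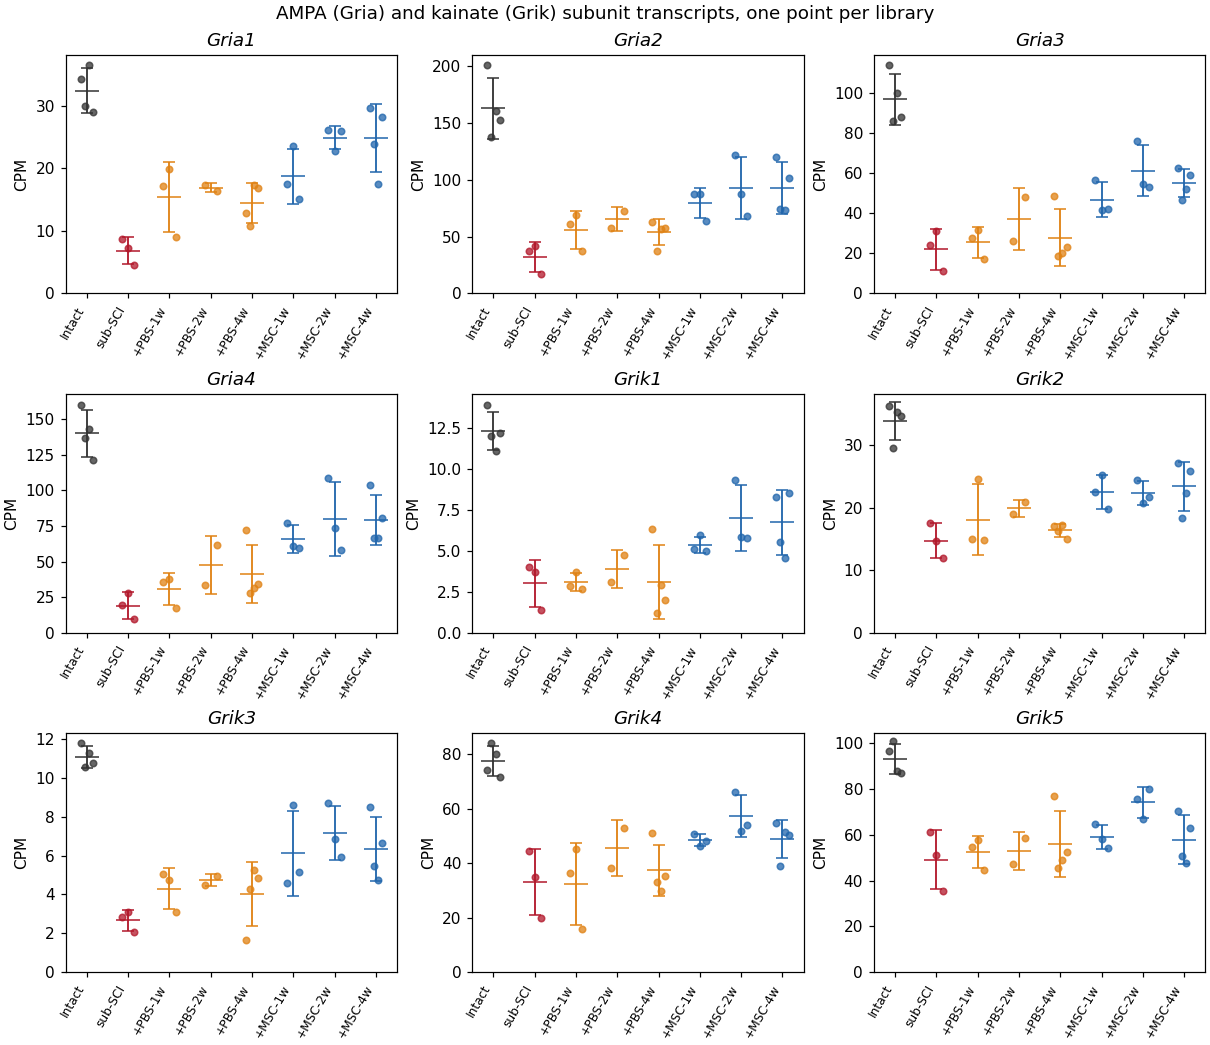
CPM of each of the 9 genes (y axis, from 0) in the 8 groups (x axis), with 1 point per library, a horizontal mark at the group mean and bars of 1 SD. The Intact points lie above all sub-SCI points for every gene, and the largest drop is that of Gria4, from 140 ± 16.3 to 19.0 ± 9.28 CPM.

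The markers of other cells moved with this comparison. All 12 neuron markers were lower and passed (median log2 fold change -2.65), from 13100 to 15600 CPM summed in Intact to 753 to 3120 CPM in sub-SCI. All 10 microglia and macrophage markers passed as higher, summing to between 359 and 575 CPM in Intact and between 3540 and 4810 CPM in sub-SCI. The 6 fibroblast markers also passed as higher (66.1 to 633 CPM against 3910 to 7930 CPM), 6 of 10 astrocyte markers passed as lower (11800 to 13500 CPM against 6240 to 12300 CPM) and 9 of 10 oligodendrocyte markers passed as lower. Subtype markers of motor (4 of 4), excitatory (3 of 3) and inhibitory neurons (4 of 4) passed as lower, with medians of -2.80, -4.12 and -3.25, whereas 1 of 5 oligodendrocyte precursor markers was higher, 1 of 4 endothelial and 1 of 6 Schwann cell markers were lower, and 1 more of each was higher. The part of these shifts in the fall of the receptor genes was not tested, but the receptor genes were measured again relative to the neuron markers.

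For that, the library scaling was replaced by the geometric mean count of the 12 neuron markers, so that a value of 0 means a change equal to theirs. This moved the median of all genes to 3.01. On this scale 4 genes passed as higher in sub-SCI, namely Grik5 (1.95, SE 0.33, adjusted p = 5.47e-06, edgeR), Grik2 (1.73, SE 0.40, adjusted p = 0.000239), Grik4 (1.56, SE 0.32, adjusted p = 5.76e-05) and Gria3 (0.58, SE 0.26, adjusted p = 0.0374). As 87.7% of all genes passed as higher on this scale, the count says only that these 4 fell less than the neuron markers did. The call on Gria3 held in 7 of the 12 fits that left out 1 marker, and those on Grik2, Grik4 and Grik5 held in all 12. Gria4 differed from the neuron markers by -0.19 (SE 0.26, edgeR adjusted p = 0.507), Gria2 by 0.41 (SE 0.32, adjusted p = 0.223), Gria1 by 0.58 (SE 0.39, adjusted p = 0.165), Grik1 by 0.66 (SE 0.34, adjusted p = 0.0708) and Grik3 by 0.82 (SE 0.49, adjusted p = 0.118).

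**Figure D2:**
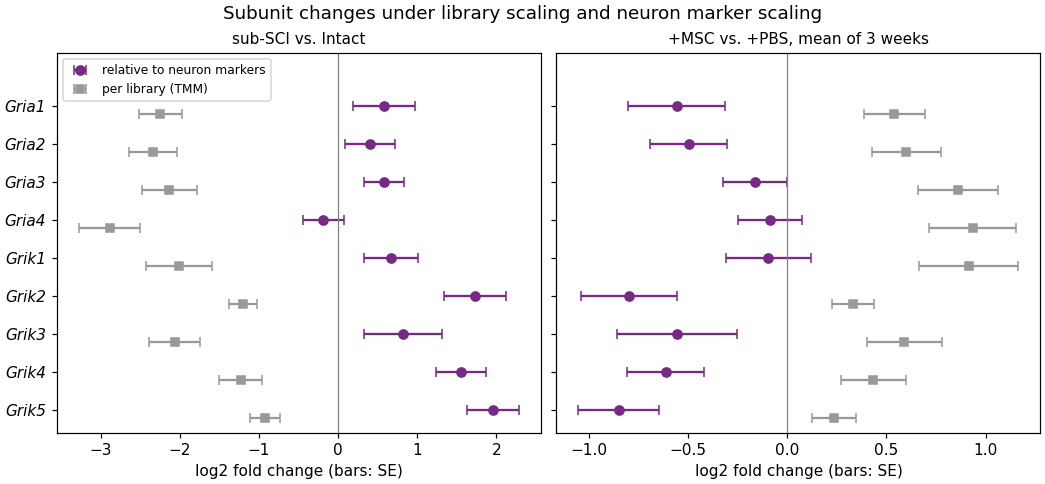
Log2 fold changes (x axis, bars of 1 SE) of the 9 genes (y axis) between sub-SCI and Intact (left) and between +MSC and +PBS over 3 weeks (right), relative to the neuron markers (circles) and under library scaling (squares). Gria4 sits near 0 on the neuron marker scale in both panels, and Grik2, Grik4 and Grik5 sit farthest from it.

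The makeup of each family differed between the groups. Per length, Gria4 held 32.5% ± 1.64 (SD, n = 4) of AMPA subunit transcripts in Intact and 23.0% ± 2.38 (n = 3) in sub-SCI, whose ranges of 31.1 to 34.8% and 21.6 to 25.8% did not overlap. Gria3 held 23.8% ± 0.324 in Intact and 28.7% ± 1.85 in sub-SCI, also without overlap. In the vehicle groups its share was 21.0% ± 0.967 (+PBS-1w), 22.8% ± 3.83 (+PBS-2w) and 20.4% ± 4.23 (+PBS-4w). The shares of a family add up to the whole, so they do not move independently. The share of Gria2, the calcium-limiting subunit, was 30.0% ± 1.88 in Intact and 31.9% ± 0.805 in sub-SCI, and these ranges overlapped. In +PBS-1w it was 34.5% ± 1.46, apart from Intact, with 31.0% ± 3.04 in +PBS-2w and 31.2% ± 4.27 in +PBS-4w. Gria1 held 13.8% ± 1.05 in Intact and 16.4% ± 3.55 in sub-SCI, again with overlap. Its share was 21.4% ± 1.08 in +PBS-1w, apart from Intact, with 19.0% ± 5.67 in +PBS-2w and 19.9% ± 5.59 in +PBS-4w. Among the kainate genes, Grik5 held 39.8% ± 1.40 in Intact and 47.5% ± 2.06 in sub-SCI without overlap, while Grik1 went from 6.40% ± 0.612 to 3.39% ± 0.904 and Grik3 from 4.93% ± 0.31 to 2.71% ± 0.441, both without overlap. Grik4 (37.8% ± 1.86 and 35.4% ± 3.11) and Grik2 (11.1% ± 1.28 and 11% ± 1.56) overlapped. These shares were not tested.

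**Figure D3:**
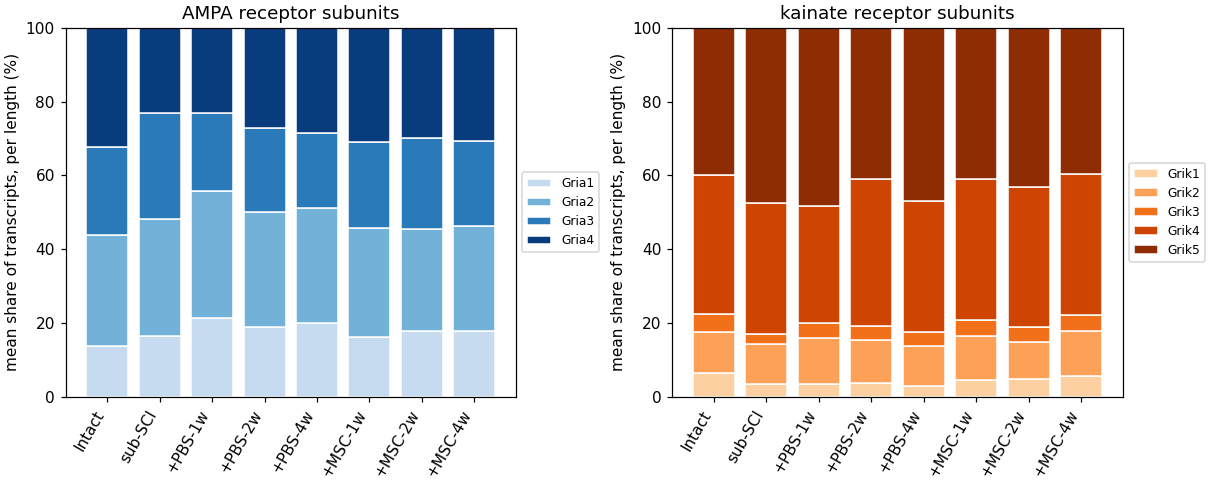
Mean share (y axis, %) of each gene in the length-corrected transcripts of its family, AMPA on the left and kainate on the right, in the 8 groups (x axis). Each column adds up to the whole family. The Gria4 segment is smallest in sub-SCI and +PBS-1w, at 23.0 and 23.1%, beside 32.5% in Intact.

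The shortfall was followed in the vehicle groups, which were compared with the same Intact libraries and so share them with sub-SCI. At 1 wpt all 9 genes were lower and passed (26.4% of all genes), and 7 were lower DEGs (12.5%), not Grik2 and Grik5. The largest log2 fold changes were those of Gria4 (-2.20, SE 0.38), Grik1 (-2.0, SE 0.42) and Gria3 (-1.93, SE 0.34), and the smallest that of Grik5 (-0.83, SE 0.19). Adjusted p over the 9 genes ran from 5.03e-05 to 0.00115 (edgeR). At 4 wpt all 9 again passed as lower (23.9% of all genes) and 8 were lower DEGs (10.7%), with Grik5 at -0.74 (SE 0.17) as the exception. Grik1 (-1.98, SE 0.38), Gria3 (-1.80, SE 0.31) and Gria4 (-1.77, SE 0.33) lay farthest from Intact. At both weeks no +PBS library reached the lowest Intact library in any of the 9 genes (30.5% and 21.3% of all genes did so as lower).

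At 2 wpt, where +PBS held 2 libraries, 8 genes passed as lower (17% of all genes) and 3 were lower DEGs, Gria2, Gria3 and Gria4 (5.66%). Grik4 stood at -0.77 on the log2 scale (SE 0.31, adjusted p = 0.0561, edgeR). Without +PBS-2w replicate 1 the count fell to 0, the remaining library being assumed to vary like the other groups. That library was the lower of the pair in 8 of 9 genes, with 26.3 against 48.3 CPM for Gria3 and 33.2 against 61.8 CPM for Gria4, and in the sum of neuron markers, 3660 against 6950 CPM. Both libraries still lay below all Intact libraries for all 9 genes (31.3% of all genes).

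Relative to the neuron markers, the vehicle groups also held genes that fell less than the markers. The 4 genes Gria1 (1.04, SE 0.39), Grik2 (1.31, SE 0.39), Grik4 (0.82, SE 0.31) and Grik5 (1.38, SE 0.33) passed as higher on this scale at 1 wpt (84.7% of all genes), and the same 4 at 4 wpt (86.4%), with 0.97 (SE 0.37), 1.07 (SE 0.37), 0.95 (SE 0.29) and 1.27 (SE 0.31). Gria3, Gria4 and Grik1 lay between -0.20 and 0.22 at both weeks and did not pass. At 2 wpt the adjusted p of the 9 genes lay between 0.0806 and 0.889 on this scale (edgeR).

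From sub-SCI to +PBS-4w the point estimates were above 0 for all 9 genes, and 2 passed as higher (13.4% of all genes). Gria1 rose from 8.69, 7.29 and 4.51 CPM to 12.9, 10.8, 17.4 and 16.8 CPM (log2 fold change 1.08, SE 0.26, adjusted p = 0.00398, edgeR), with no overlap, and was a higher DEG (4.28% of all genes). Gria4 rose by 1.12 (SE 0.36, adjusted p = 0.0274, edgeR), from at most 27.9 CPM to 72.0, 27.9, 31.2 and 33.9 CPM, again without overlap before rounding. Groups that did not overlap in this direction made up 12.5% of all genes. Grik1, by contrast, stood at 0.04 (SE 0.40, adjusted p = 0.958, edgeR). The call on Gria1 held in all 26 fits that left out 1 library, and that on Gria4 in 23 of them. The Gria4 value of 72.0 CPM was that of +PBS-4w replicate 1, and its log2 fold change lay between 0.69 and 1.51 over the 35 alternatives. One gene passed when sub-SCI replicate 1 or sub-SCI replicate 3 was left out, and on these 2 groups alone 0 genes passed in edgeR and 1 in DESeq2 (8.77% of all genes). In the same comparison all 12 neuron markers had estimates above 0 (median 0.81, 3 passed as higher), 7 of 10 astrocyte markers passed as higher, and 4 of 10 microglia and macrophage markers and 2 of 6 fibroblast markers passed as lower. Relative to the neuron markers neither gene passed, Gria1 standing at 0.38 (SE 0.40, adjusted p = 0.447, edgeR) and Gria4 at 0.32 (SE 0.26, adjusted p = 0.344).

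**Figure D4:**
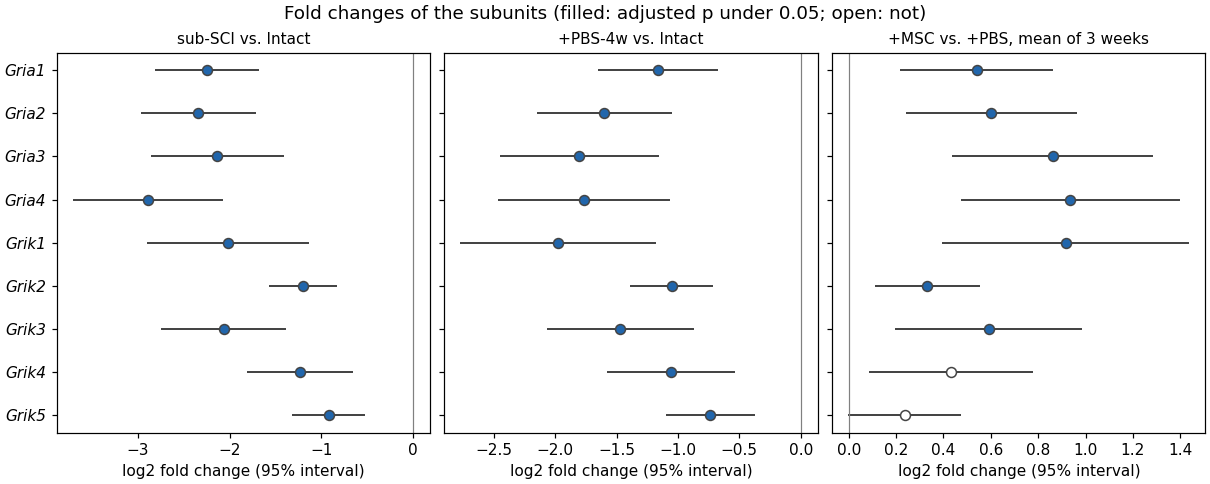
Log2 fold changes (x axis, with 95% intervals; the 3 x axes differ in range) of the 9 genes (y axis) for sub-SCI and +PBS-4w against Intact and for +MSC against +PBS averaged over 3 weeks. Fold changes are under library scaling. Filled points passed an adjusted p of 0.05, and the open points are Grik4 and Grik5 in the right panel.

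Whether hUC-MSCs altered the transcripts was asked by comparing +MSC with +PBS at the same week. The point estimates were above 0 for all 9 genes at each week, with medians of 0.51, 0.56 and 0.78 at 1, 2 and 4 wpt (all genes, 0.00, 0.00 and -0.04). No gene passed at any of the 3 weeks in edgeR's quasi-likelihood test (0.0389%, 0% and 3.07% of all genes passed as higher). At an unadjusted p under 0.05, 2, 1 and 7 of the 9 genes were higher (10.6%, 5.49% and 11.2% of all genes), and DESeq2 on the 2 groups of each week called 3, 1 and 4 as higher (5.03%, 2.81% and 3.55% of all genes).

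At 1 wpt the largest estimate was that of Gria4, which measured 77.4, 60.7 and 59.4 CPM in +MSC-1w and 35.8, 38.0 and 17.7 CPM in +PBS-1w. The ranges lay apart, but its log2 fold change of 1.11 (SE 0.38) had an adjusted p of 0.149 (edgeR). Gria3 measured 56.9, 41.5 and 42.3 CPM in +MSC-1w and 27.8, 31.6 and 17.1 CPM in +PBS-1w (0.88, SE 0.35, adjusted p = 0.193, edgeR). Grik1 (5.11, 5.94 and 5.00 against 2.88, 3.69 and 2.64 CPM) and Grik4 (50.6, 46.3 and 48.2 against 36.2, 45.1 and 15.9 CPM) were also higher without overlap, which made 4 of 9 genes, beside 15.3% of all genes. The other 5 overlapped, among them Gria2 with 87.6, 87.4 and 64.1 CPM against 61.2, 69.0 and 37.2 CPM. The +PBS-1w library labelled replicate 3 was the lowest of its group for all 9 genes, and it had the lowest neuron marker sum (1670 CPM, against 3840 and 3010) and the highest fibroblast marker sum (4400 CPM, against 2140 and 1950).

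At 2 wpt, 5 of 9 genes were higher in +MSC without overlap, beside 18.6% of all genes. Grik5 had the lowest adjusted p, 0.378 (edgeR), with 75.5, 66.9 and 80.2 CPM in +MSC-2w and 47.0 and 58.6 CPM in +PBS-2w (0.49, SE 0.22). Gria1 measured 26.1, 22.7 and 25.9 CPM against 17.4 and 16.4 CPM (0.56, SE 0.30, adjusted p = 0.446, edgeR). Grik1, Gria3 and Grik3 were the other 3 genes without overlap. Gria2, with 122, 87.9 and 68.6 CPM against 58.0 and 72.9 CPM, overlapped with the vehicle group, as did Gria4, Grik2 and Grik4.

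At 4 wpt the adjusted p came closest to the threshold. Gria1 measured 29.6, 23.8, 17.5 and 28.2 CPM in +MSC-4w and 12.9, 10.8, 17.4 and 16.8 CPM in +PBS-4w, which lay apart by a narrow margin (0.78, SE 0.23, adjusted p = 0.0588, edgeR). Gria2 measured 120, 74.2, 73.7 and 102 CPM against 63.2, 37.3, 56.9 and 57.9 CPM, without overlap (0.78, SE 0.26, adjusted p = 0.083, edgeR). Grik2 measured 27.2, 18.3, 22.3 and 25.9 CPM against 17.0, 16.2, 17.3 and 15 CPM, without overlap (0.52, SE 0.16, adjusted p = 0.0645, edgeR). These were the 3 genes without overlap, beside 6.08% of all genes. In the next 3 genes the vehicle library labelled replicate 1 stood apart from the other 3. Gria3 measured 62.5, 46.7, 52.0 and 59.2 CPM in +MSC-4w and 48.9, 18.8, 20.3 and 23.1 CPM in +PBS-4w (0.99, SE 0.30, adjusted p = 0.0664, edgeR). Gria4 measured 104, 66.8, 66.5 and 80.3 CPM against 72.0, 27.9, 31.2 and 33.9 CPM (0.94, SE 0.33, adjusted p = 0.0969, edgeR). In both genes the other 3 vehicle libraries lay below all +MSC-4w libraries. Grik1 measured 8.31, 5.53, 4.58 and 8.52 CPM against 6.33, 1.23, 2.91 and 1.97 CPM, with the same library as the high one (1.11, SE 0.37, adjusted p = 0.09, edgeR).

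Grik5 had the smallest estimate at this week, with 70.2, 50.6, 47.7 and 63.0 CPM in +MSC-4w and 77.1, 45.3, 48.8 and 52.3 CPM in +PBS-4w. Its estimate was 0.05 (SE 0.17, adjusted p = 0.888, edgeR), and the 95% interval of -0.30 to 0.40 left room for changes of either sign. Grik4 (0.39, SE 0.25, adjusted p = 0.355, edgeR) and Grik3 (0.66, SE 0.28, adjusted p = 0.165) also overlapped between the groups. In Grik3 the vehicle library labelled replicate 1 was the low one, at 1.64 CPM beside 4.30, 5.28 and 4.86 CPM. That library, +PBS-4w replicate 1, had the highest sum of neuron markers of its group (8610 CPM, against 2350, 2480 and 3250) and the lowest sum of fibroblast markers (639 CPM, against 2180, 1800 and 2020). Without it 5 of the 9 genes passed as higher at 4 wpt (9.63% of all genes). The count was 3 without sub-SCI replicate 3 or +PBS-1w replicate 3 and 1 without +PBS-1w replicate 2, +MSC-4w replicate 2 or +MSC-4w replicate 3. DESeq2 on all libraries called 6 genes at this week, Gria1 to Gria4, Grik1 and Grik2 (6.29% of all genes).

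Over the 3 weeks together, weighted equally, all 4 AMPA genes and 3 of 5 kainate genes were higher in +MSC and passed under library scaling, 7 of 9 beside 12.3% of all genes, whereas all 9 estimates lay below 0 relative to the neuron markers. Gria4 (0.94, SE 0.22, adjusted p = 0.0055, edgeR), Grik1 (0.92, SE 0.25, adjusted p = 0.0125) and Gria3 (0.86, SE 0.20, adjusted p = 0.00544) had the largest differences. Gria2 (0.60, SE 0.17, adjusted p = 0.016, edgeR), Grik3 (0.59, SE 0.19, adjusted p = 0.0274), Gria1 (0.54, SE 0.15, adjusted p = 0.0156) and Grik2 (0.33, SE 0.10, adjusted p = 0.0267) followed. The high-affinity kainate genes Grik4 (0.43, SE 0.16, adjusted p = 0.0607, edgeR) and Grik5 (0.24, SE 0.11, adjusted p = 0.135) did not pass, and 0 of the 9 genes were DEGs (1.61% of all genes as higher). A test of whether the weekly differences were unequal called 0 genes in edgeR, with 0 at an unadjusted p under 0.05 among the 9 (lowest 0.298, highest 0.94). The count of 7 fell to 2 without +PBS-2w replicate 1. Libraries labelled replicate 1 tended to deviate together from their group means across groups, and the libraries other than replicate 1 gave 3 genes.

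The neuron markers moved in the same comparison. Over the 3 weeks 11 of 12 passed as higher in +MSC, with a median log2 difference of 0.96 beside 0.59 for the 9 genes, while 6 of 6 fibroblast markers and 4 of 10 microglia and macrophage markers passed as lower. The neuron marker sum lay between 5010 and 9930 CPM in +MSC-1w against 1670 to 3840 CPM in +PBS-1w, between 8150 and 12000 CPM against 3660 to 6950 CPM at 2 wpt, and between 8010 and 9860 CPM against 2350 to 8610 CPM at 4 wpt. The part of this shift in the receptor result was not tested. Relative to the neuron markers, Gria4 (-0.09, SE 0.16, adjusted p = 0.624, edgeR), Grik1 (-0.09, SE 0.21, adjusted p = 0.679) and Gria3 (-0.16, SE 0.16, adjusted p = 0.341) lay near 0 over the 3 weeks. Grik5 (-0.85, SE 0.20, adjusted p = 0.000648), Grik2 (-0.80, SE 0.24, adjusted p = 0.00428), Grik4 (-0.61, SE 0.19, adjusted p = 0.00563), Gria1 (-0.56, SE 0.24, adjusted p = 0.0356) and Gria2 (-0.50, SE 0.19, adjusted p = 0.0211) passed as lower in edgeR, as did 84.2% of all genes on this scale. At single weeks Grik5 passed as lower at 1 wpt (-1.01, SE 0.35, adjusted p = 0.0387, edgeR, beside 48.9% of all genes), and Grik5 (-1.20, SE 0.31), Grik4 (-0.86, SE 0.29) and Grik2 (-0.84, SE 0.37) did at 4 wpt (77.5%), while at 2 wpt the adjusted p lay between 0.265 and 0.986. Over the 3 weeks the 5 genes differed between +MSC and +PBS by less than the neuron markers did, and all 5 calls held in each of the 12 fits without 1 marker.

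To see how far the treated cords remained from Intact, +MSC was set against the same Intact libraries. The 9 point estimates were below 0 at each week. At 1 wpt 8 genes passed as lower (14.8% of all genes) and Gria2 was a lower DEG (2.63%), with log2 fold changes between -1.20 (Grik1, SE 0.40) and -0.59 (Grik2, SE 0.17), and Grik4 at -0.68 had an adjusted p of 0.0555. At 2 wpt 2 genes passed (6.44%), Gria2 at -0.81 (SE 0.28, adjusted p = 0.0455, edgeR) and Grik2 at -0.60 (SE 0.17, adjusted p = 0.0159). At 4 wpt 6 genes passed (13.6%), led by Grik5 at -0.69 (SE 0.17, adjusted p = 0.00422, edgeR), and Gria1 was closest to Intact at -0.39 (SE 0.23, adjusted p = 0.202). Every +MSC library lay below every Intact library in 9 genes at 1 and 2 wpt and in 8 at 4 wpt (25.5%, 21.3% and 20.4% of all genes), the exception being Gria1, whose highest +MSC-4w library reached 29.6 CPM beside 29.0 CPM in the lowest Intact library.

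The neuron markers were also below Intact in the treated cords, with medians of -1.04, -0.64 and -0.78 at 1, 2 and 4 wpt and all 12 estimates below 0 at each week, of which 4, 1 and 4 passed. All 10 microglia and macrophage markers passed as higher at each week. Relative to the neuron markers, the 9 genes had estimates between -0.14 (Grik1) and 0.46 (Grik2) at 1 wpt, between -0.21 (Grik1) and 0.33 (Grik5) at 2 wpt and between -0.12 (Grik1) and 0.37 (Gria1) at 4 wpt. The lowest adjusted p on this scale was 0.322 (Grik2 at 1 wpt, edgeR), and Grik5, which led the list at 4 wpt under library scaling, stood at 0.07 (SE 0.30, adjusted p = 0.86).

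The counts of genes that passed as lower in +MSC than in Intact moved with single libraries. Except for DESeq2 at 2 wpt, the share of all genes was not computed for these fits. Whether other genes moved alike is therefore not known. The count at 1 wpt was 5 without Intact replicate 1, +MSC-1w replicate 1 or +MSC-1w replicate 2, and 1 without +MSC-1w replicate 3. That at 2 wpt was 0 without +MSC-2w replicate 2 or replicate 3, 1 without any of the 4 Intact libraries, replicates 1 or 2 of +MSC-1w, replicate 1 of +PBS-1w, either +PBS-2w library, replicate 4 of +MSC-4w, or replicates 3 or 4 of +PBS-4w, and 9 in fits of the 2 groups alone by edgeR or DESeq2 (17.6% of all genes in DESeq2). That at 4 wpt was 1 without +MSC-4w replicate 2, 2 without Intact replicate 1 or +MSC-4w replicate 3, and 3 without Intact replicate 2, Intact replicate 3 or +MSC-4w replicate 4.

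Set in order of their group means, Intact came first for all 9 genes, +MSC-2w second for 8 (+MSC-4w for Grik2), and sub-SCI last for 8 (+PBS-1w for Grik4, at 32.4 CPM beside 33.0 CPM in sub-SCI). Intact was apart from the next group in every gene. Most other neighbours in the order overlapped, except +PBS-4w and sub-SCI for Gria1, +MSC-1w and +PBS-2w for Grik1, and +MSC-2w and +MSC-1w for Grik5. As a share of the Intact mean, the 9 genes ranged from 13.5 to 52.8% in sub-SCI, from 21.7 to 60.0% over the vehicle groups and from 43.6 to 79.7% over the +MSC groups. The length-corrected Gria4 share of AMPA transcripts was 30.9% ± 2.60, 29.8% ± 2.92 and 30.8% ± 1.40 in +MSC at 1, 2 and 4 wpt, beside 23.1% ± 1.53, 27.2% ± 4.88 and 28.5% ± 5.61 in +PBS, and the groups lay apart at 1 wpt. This was not particular to Gria4. At 1 wpt the shares of Gria1 and Gria2 (lower in +MSC) and Grik1 (higher) also lay apart. So did those of Grik1 (higher) and Grik2 (lower) at 2 wpt and Grik5 (lower) at 4 wpt, and the other shares overlapped.

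The genes around the receptors were read from 6 lists. In sub-SCI, 9 of 11 AMPA auxiliary subunit genes passed as lower (median -2.06), as did both kainate auxiliary genes Neto1 and Neto2 (-1.75), 15 of 16 scaffold and trafficking genes (-1.76), both delta receptor genes (-1.78), 7 of 7 NMDA receptor genes (-2.62) and 12 of 12 GABA-A receptor genes (-2.77), beside 30.9% of all genes. The lowest adjusted p values belonged to Adarb1, the enzyme that edits the Gria2 transcript (-2.45, SE 0.23, adjusted p = 9.45e-09, edgeR), the NMDA subunit gene Grin2d (-1.96, SE 0.19, adjusted p = 1.48e-08), Cacng2, which encodes the AMPA receptor partner stargazin (-3.68, SE 0.36, adjusted p = 2.15e-08), and Shisa6 (-2.78, SE 0.27, adjusted p = 2.31e-08). The 3 AMPA-related genes that did not pass were Cacng4 (-0.02, adjusted p = 0.905, edgeR), Cnih2 (-0.72, adjusted p = 0.0985) and the scaffold gene Dlg1 (-0.25, adjusted p = 0.281). The inhibitory GABA-A and the NMDA receptor lists thus had lower medians than the 9 genes, -2.77 and -2.62 beside -2.06, without a test of that difference.

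Partners of the receptors were also compared between +MSC-4w and +PBS-4w. Cacng2 (1.9, SE 0.30, adjusted p = 0.00312, edgeR), Neto2 (1.04, SE 0.18, adjusted p = 0.00498), Neto1 (1.09, SE 0.20, adjusted p = 0.00586) and Adarb1 (0.93, SE 0.19, adjusted p = 0.0109) had the lowest adjusted p values. In all, 1 of 11 AMPA auxiliary genes, both kainate auxiliary genes, 6 of 16 scaffold and trafficking genes, 3 of 7 NMDA receptor genes and 1 of 12 GABA-A receptor genes passed as higher at this week, beside 3.07% of all genes, and no gene of these lists passed as lower. The medians were 0.57 for the AMPA auxiliary and 0.50 for the scaffold list, beside 0.78 for the 9 subunit genes. The genes below 0 were Pick1 (-0.07, adjusted p = 0.809, edgeR), Dlg1 (-0.16, adjusted p = 0.637) and Gabrd (-0.12, adjusted p = 0.926). Over the 3 weeks together 7 of 11, 2 of 2, 10 of 16, 5 of 7 and 10 of 12 genes of these lists passed as higher, with both delta receptor genes, beside 12.3% of all genes, and Cacng2 again led them (1.46, SE 0.20, adjusted p = 0.000211, edgeR). Estimates below 0 were those of 2 of 11 AMPA auxiliary and 1 of 16 scaffold and trafficking genes, and none passed as lower. The neuron markers had medians of 1.07 at 4 wpt and 0.96 over the 3 weeks. The partners were not measured relative to them.

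Over the 26 libraries, log2 CPM of the 9 genes varied together to unequal degrees. The pairwise Pearson r ranged from 0.638 (Grik3 and Grik5) to 0.974 (Gria3 and Gria4), as a description over libraries that share groups and scaling. Among all genes tested, the closest to Gria4 were Gdap1 (r = 0.997) and Serpini1 (0.993), to Gria3 Brsk1 (0.989) and Atcay (0.988), to Gria2 Scn2a (0.983) and Dpp10 (0.981), and to Gria1 Cyct (0.972) and Nrcam (0.962). For the kainate genes they were Mpped1 (0.962) and Hpca (0.957) for Grik1, RGD1563349 (0.941) and Cttnbp2 (0.938) for Grik2, Cacna1e and Adcy1 (both 0.973) for Grik3, Aplp1 (0.979) and Pou3f3 (0.977) for Grik4, and Dact3 and Slc22a17 (both 0.966) for Grik5. Scn2a encodes a voltage-gated sodium channel and Cacna1e a voltage-gated calcium channel of neurons.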

How the data were processed

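The authors deposited 1 table of raw read counts per gene. By their processing notes and methods, poly(A) libraries were sequenced as read pairs, trimmed (Trim Galore 0.5.0) and aligned with HISAT2 2.1.0, reads that mapped to the human genome were removed, the rest were aligned to Rnor6, proper pairs were kept (SAMtools 1.9) and counted with featureCounts 1.6.4. The strand setting and annotation release are not given in the sources used here. Removing reads that map to human can lower the counts of conserved genes.

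Of 32883 genes, 6513 had no count, and 17990 passed filterByExpr. One edgeR 4.0.16 quasi-likelihood model (R 4.3.3, limma 3.58.1) with TMM scaling covered 8 groups and 26 libraries, with Benjamini-Hochberg adjustment over all genes tested. DESeq2 1.42.0 and other filters, scalings and samples were alternatives. The fit was tested on simulated data. The study's methods and the labels differ on the number of +MSC-2w libraries, and the labels were followed. No pair of libraries of the same group agreed within sampling noise. The lowest chi-square per degree of freedom was 5.67, for +MSC-2w replicates 2 and 3, whereas their pairs with +MSC-2w replicate 1 gave 46.6 and 45.1.

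Named genes were the 9 subunit genes, up to 4 partners with the lowest adjusted p per comparison, partners that went against their list at 4 wpt, and the 2 genes most like each subunit gene. The members and lists were chosen with earlier results of these data known.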

Additional observations from a re-analysis of the deposited data

Results flagged for a closer look

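In +PBS-4w, replicate 1 stood far above the other 3 libraries in Gria3 (48.9 CPM, against 18.8, 20.3 and 23.1 CPM) and in Gria4 (72.0 CPM, against 27.9, 31.2 and 33.9 CPM). The gap to the nearest library passed Dixon's 95% critical value for both genes, in 2 of 27 sets of 4 libraries examined, and chance alone would give about 1 in 20. Both calls fell on the same library in genes that varied together (Pearson r = 0.974), so they are not independent. The sum of the 12 neuron markers in this library was 8610 CPM, beside 2350, 2480 and 3250 CPM in the others, and its part in these values was not tested.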

How the results depend on the processing

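In sub-SCI, +PBS-1w and +PBS-4w against Intact, 9 of 9 genes passed as lower under every alternative run, and no estimate of a subunit gene that had passed changed sign under any of them. Leaving out each library in turn gave 0 to 9 genes for +PBS-2w against Intact, 1 to 9 for +MSC-1w, 0 to 2 for +MSC-2w and 1 to 8 for +MSC-4w against Intact, 1 to 3 for +PBS-4w against sub-SCI, 0 to 5 for +MSC-4w against +PBS-4w and 2 to 9 for the mean of 3 weeks. With only the libraries other than replicate 1, the counts were 1 for +PBS-2w and 5 for +MSC-1w against Intact, 3 for +MSC-4w against +PBS-4w and 3 for the mean of 3 weeks. DESeq2 on 2 groups gave 3, 1 and 4 genes for +MSC against +PBS at 1, 2 and 4 wpt, 9 for +MSC-2w against Intact and 1 for +PBS-4w against sub-SCI, where edgeR on 2 groups gave 9 and 0. DESeq2 on all libraries gave 6 for +MSC-4w against +PBS-4w, and a term for replicate 1 gave 3. With no filter on low counts 1 gene passed for +MSC-2w and 3 for +MSC-4w against Intact. The cause of these moves was not tested. Shares of all genes were computed only for the fits that have a share printed above, so the other counts do not set the 9 genes apart.

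The main fit did not treat libraries of the same replicate number as pairs. Deviations from the group means correlated with a median of 0.0579 over 80 pairs of libraries of the same number. The median was -0.0255 over 214 pairs of different numbers. A correlation above 0.1 was seen in 31 of the 80 pairs and in 32 of the 214. Among the 28 pairs labelled replicate 1 the median was 0.171, and 18 of these exceeded 0.1. The fit with the replicate number as a block gave 3 genes for +MSC-4w against +PBS-4w in place of 0, and moved no other count by over 1.5 times. The share of all genes that passed in the block fit was not computed, so whether other genes gained alike is not known. The shallowest of the 9 genes was Grik1, with 35 to 320 reads per library, and whether depth limited its calls was not tested.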
